A study of Bos taurus with 12 samples.

Results

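Intronic circular RNAs (ciRNAs) are defined as circles made from intron sequence alone. The ciRNAs described here were the 1362 circRNAs that the deposited circRNA table types as ciRNA, and they made up 9.68% of its 14070 circRNAs. The rest of the table held 12423 exonic circRNAs, in which the ends of exons are joined, and 285 intergenic circRNAs. The RNA came from cultured preadipocytes, the precursors of fat cells, isolated from a back muscle, the longissimus dorsi, of Qinchuan cattle at birth. The 12 libraries comprised 3 of uninduced cells (0 d) and 3 for each later harvest, at 3, 6 and 9 d. Induction medium contained dexamethasone, IBMX and insulin, and the cells were then kept with insulin as the only inducer. For the long RNA libraries the sample labels describe poly(A) selection and the study's methods describe rRNA depletion, and how much of the ciRNA pool either step retained was not measured.

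A spliced intron is released as a lariat, in which its 5′ end is tied by a 2′-5′ bond to an inner base, the branch point, a short way upstream of the 3′ splice site. The enzyme DBR1 opens this bond so that the intron can be degraded. A ciRNA forms when a lariat escapes DBR1 and loses the tail beyond the branch point, so that a typical ciRNA starts at the 5′ splice site and ends a little before the 3′ splice site.

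Primers are shown for ciRNA105 and ciRNA489, the ciRNAs for which primers were found in the study's tables, because they are the sequences with which these circles can be measured again. The 4 mature miRNAs are shown because the study's predicted network placed them beside ciRNA105 (bta-miR-7857-5p), ciRNA123 (bta-miR-10172-3p_R-1), ciRNA489 (bta-miR-27b and bta-miR-486) or ciRNA823 (bta-miR-27b), and capitals mark their seeds (bases 2 to 8).
ciRNA105 forward primer: acacagtccctgctgttgtt
ciRNA105 reverse primer: actgctaaggaaacactcaatgc
ciRNA489 forward primer: agcagtttggaagccccttt
ciRNA489 reverse primer: gcttgcagagaagagacaagg
bta-miR-7857-5p: aTAGCCAGttggggaagaatgc
bta-miR-10172-3p_R-1: tCACTGGGcatcctctgcttt
bta-miR-27b: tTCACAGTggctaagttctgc
bta-miR-486: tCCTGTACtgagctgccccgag
The 4 seeds differed from one another. The mean normalized level of bta-miR-7857-5p was 583 ± 24.0, 398 ± 5.89, 359 ± 21.5 and 316 ± 9.27 at 0, 3, 6 and 9 d, and that of bta-miR-27b was 29779 ± 2902, 26024 ± 821, 38275 ± 2846 and 48292 ± 3875 (SD, n = 3). bta-miR-10172-3p_R-1 measured 65.6, 89.8 and 241 at 0 d, 491, 457 and 544 at 3 d, 310, 278 and 430 at 6 d, with 368, 374 and 415 at 9 d. bta-miR-486 measured 11938, 13189 and 21634 at 0 d, 5390, 5367 and 5996 at 3 d, 2081, 1882 and 5137 at 6 d, with 2908, 2351 and 2208 at 9 d. Replicate 3 was the highest at 0 and 6 d for both. These miRNA levels are descriptions, and no binding to a ciRNA was measured.

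The cultures were checked against marker mRNAs, in FPKM, which scales fragments by transcript length and library depth. Of 10 adipocyte markers, 8 had an mRNA entry, and their summed level lay between 134 and 145 at 0 d. It lay between 789 and 815 at 3 d, between 269 and 300 at 6 d, and between 232 and 265 at 9 d. PLIN2, a lipid droplet protein, was the highest of them. In limma 6, 4 and 4 of the 8 were called higher at 3, 6 and 9 d than at 0 d, where 23.3%, 11.4% and 10.9% of all mRNAs were called in either direction. ADIPOQ, CEBPA and CIDEC averaged under 1 FPKM over the 12 libraries. ADIPOQ, the defining hormone of mature fat cells, measured 0.01, 0.03 and 0.03 FPKM at 0 d, 0.40, 0.86 and 0.91 at 3 d, 1.64, 0.22 and 0.24 at 6 d, with 0.80, 0.82 and 0.19 at 9 d. It was thus higher in each later library than at 0 d and above 1 FPKM in 6 d replicate 1 alone. The 7 fibroblast and preadipocyte markers were led by COL3A1 and summed to between 115690 and 123055 FPKM at 0 d, between 167098 and 174914 at 3 d, between 130216 and 134676 at 6 d, and between 211663 and 224846 FPKM at 9 d, while DLK1 averaged under 1 FPKM. Of these markers 4, 3 and 2 were called higher at 3, 6 and 9 d, and COL1A1 was called lower at 3 d. COL3A1, which made up most of the sum, was not called. Skeletal muscle markers were present as well. With 7 of 8 markers in the table and DES as the highest, their sums were 824, 864 and 938 FPKM at 0 d against 269, 297 and 292 at 3 d. On day 6 the sums were 398, 378 and 421 and on day 9 they were 326, 292 and 323. In limma 6, 5 and 6 of these 7 muscle markers were called lower at 3, 6 and 9 d than at 0 d, beside the same 23.3%, 11.4% and 10.9% of all mRNAs. The 4 blood and immune markers, with CD14 as the highest and PTPRC and HBB at 0, summed to 1.05, 0.660 and 0.890 FPKM at 0 d, 2.52, 2.89 and 2.66 at 3 d, 1.5, 1.51 and 1.45 at 6 d, with 2.46, 2.93 and 1.97 at 9 d. CD14 was called higher at 3 d (log2 fold change 1.71) and 9 d (1.59). The 3 endothelial markers summed to between 1.58 and 2.64 FPKM over the 12 libraries. In such bulk cultures fewer cells of a type and less RNA per cell cannot be told apart.

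The ciRNAs were scarce. Each library held 5358 to 10729 back-spliced reads, which cross the closing point of a circle, drawn from 53304904 to 77330343 reads. Of these, ciRNAs took 394, 311 and 338 reads at 0 d, 300, 337 and 333 at 3 d, 260, 246 and 444 at 6 d, with 420, 410 and 341 at 9 d. Their 4134 reads were 4.32% of all back-spliced reads, against 82.2% for exonic circRNAs. A ciRNA had a median of 1 read over the 12 libraries, and 778 of the 1362 rested on exactly 1 read. In 1189 cases a ciRNA was found in 1 library, and 173 (12.7%) were found in at least 2, compared with 36.3% of exonic circRNAs. A single ciRNA, ciRNA75, was found in all 12 libraries. By day, 1206 ciRNAs were found on 1 of the 4 days and 27 on all 4 days.

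Every ciRNA began exactly at the 5′ end of the intron listed for it, which for 419 of the 1362 follows from the listing, since their listed intron was the circle itself. For the others, whether such a start was required to be typed as ciRNA was not checked, so the match tells nothing of their origin. The median span of the 1362 was 884 bases (interquartile range 324 to 2266), while exonic circRNAs spanned a median of 10373 bases of genome. The order was the same in each of the 12 libraries, with a median of 719 to 1156 bases for the ciRNAs found there and 8488 to 10308 for the exonic circRNAs. Spans over 10000 bases occurred in 114 ciRNAs, and the widest reached 196047 bases.

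The place where the circle closed divided the ciRNAs. In 943 ciRNAs the listed intron was not the circle itself (in 1 of them the circle closed 1 base past the intron, and in the others the intron was longer), so that the distance from the circle's end to the intron's 3′ end could be read. Among these, 269 (28.5%) closed 20 to 29 bases upstream of the intron's 3′ end, more than in any other interval of 10 bases. The intervals on either side, 10 to 19 and 30 to 39 bases, held 84 and 77. A separate group of 136 closed 0 to 9 bases upstream, and the most frequent single distance was 1 base, with 50 ciRNAs. The remainder trailed upstream, with 32 at 40 to 49 bases and 299 at more than 100 bases.

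**Figure D1:**
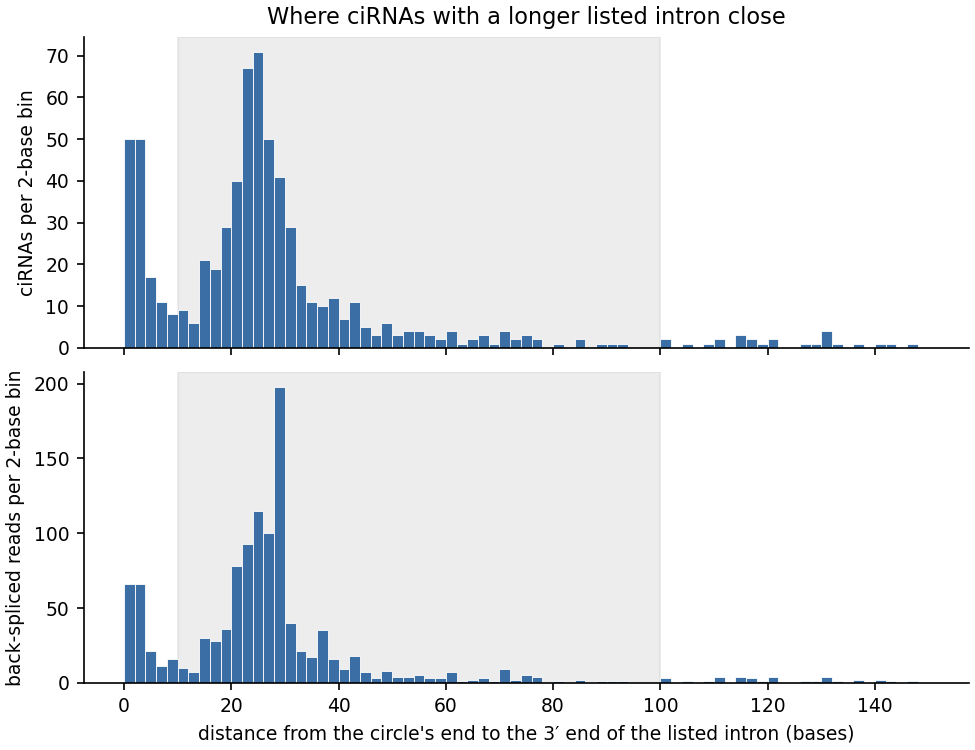
Distance in bases from the end of the circle to the 3′ end of its listed intron, for ciRNAs whose listed intron is longer than the circle (upper panel, ciRNAs per 2-base bin; lower panel, their back-spliced reads). The shading spans 10 to 100 bases, and both panels peak between 20 and 30 bases with a further group within 10 bases of the intron's end.

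A window of 10 to 100 bases upstream was used as the position of a lariat's branch point. It held 507 ciRNAs of 410 host genes, with 929 reads (22.5% of ciRNA reads), a median distance of 25 bases (interquartile range 22 to 31) and a median span of 809 bases. Another 137 ciRNAs with 181 reads closed under 10 bases from the intron's end or 1 base past it. The 299 that closed more than 100 bases upstream were short (median 241 bases) and lay in longer introns (median 1867 bases), and they carried 427 reads.

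For the other 419 ciRNAs, listed with their own span as the intron, no distance to a 3′ splice site could be read. They were fewer but carried 2597 reads, or 62.8% of all ciRNA reads. These own-span ciRNAs were also the longest group, with a median of 2413 bases, and they included 111 of the 114 spans over 10000 bases. Their reads were distributed unlike those of the other ciRNAs. In 304 of the 419 no library held exactly 1 read, although 238 of their 579 values above 0 were 2. The same absence of 1 was seen in intergenic circRNAs, where 0 of 793 values above 0 were exactly 1. It was also seen in the 295 exonic circRNAs with a single listed intron, with 0 of 550 values. The 304 were picked for holding no value of 1, so their lack of it was fixed beforehand. Over all 419 own-span ciRNAs, 16.9% of the values above 0 were 1, against 74.4% in the 943 other ciRNAs. Of these 943, 201 held no value of 1 either. Single reads made up the whole of 672 of the 943 and of 106 of the 419, which places many of the values at 1. Of the 419, 32 had a span that was also listed as an intron for a circRNA outside this group, and 6 of these were among the 304. Whether the spans of the rest are introns was not checked further. Of the 304, 103 shared a start or an end with an exonic circRNA, and none of the other ciRNAs did. Both CIRCExplorer2 and CIRI are named as callers in the study's methods and the table does not tell which one listed a ciRNA, so their part in this difference was not tested. A value of 0 in these 304 ciRNAs may therefore stand for 1 read.

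Recurrence between libraries was compared within classes of total reads. Except in the class of 2 reads, the reads of the groups need not be equal within a class. Among ciRNAs with 3 to 4 reads in all, 61.5% of the 39 that closed 10 to 100 bases upstream were found in at least 2 libraries, and so were 61.5% of exonic circRNAs with 3 to 4 reads. Of the 11 that closed over 100 bases upstream the share was 9.09%. With 2 reads in all, the shares were 18.0%, 29.3% and 11.0%. With 5 to 9 reads they were 85.7% of 7, 91.4% and 100% of 3, and with at least 10 reads 100% of 6, 99.8% and 100% of 1. Own-span ciRNAs are left out of this comparison. In 304 of the 419 the absence of values of 1 limits how their reads can spread over libraries. The other 115, which did hold values of 1, were left out with them. Also left out were the 137 ciRNAs that closed under 10 bases from the intron's end or 1 base past it. The exonic circRNAs still included the 295 that held no value of 1, so the shares are not fully like for like. No test was run on these shares, which are over circles and not over samples.

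**Figure D2:**
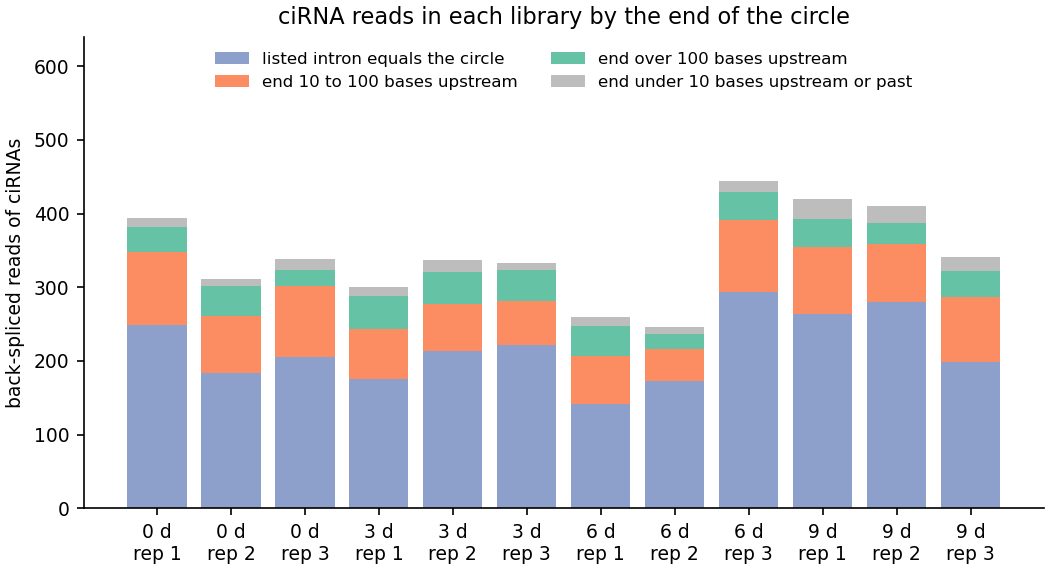
Back-spliced reads of ciRNAs in each of the 12 libraries (0, 3, 6 and 9 d, 3 replicates each), stacked by where the circle ends relative to its listed intron. The circles whose listed intron equals the circle took the largest part in every library, and the whole bar ranges from 246 to 444 reads.

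Some introns closed at several nearby points. The 943 ciRNAs whose listed intron was not the circle came from 837 introns, of which 770 had 1 end, 52 had 2, 7 had 3 and 8 had 4 or more. In the 67 introns with at least 2 ends the ends lay within a median of 5 bases of each other, and in 49 they lay within 20 bases. At least 2 libraries held 72 of the 943 ciRNAs (7.64%) and, with the ends of an intron summed, 98 of the 837 introns (11.7%). Summing can only add libraries to an intron, so a rise was to be had in advance. The introns named next were chosen after their values were seen, for their number of ends. PDLIM7, which encodes a PDZ and LIM domain adaptor of the actin cytoskeleton, had an intron of 492 bases with 8 ends, 19 to 42 bases upstream, and 153 reads. HNRNPK, an RNA-binding protein gene, had 7 ends 228 to 251 bases upstream in an intron of 1430 bases, with 28 reads. MACF1, which crosslinks actin and microtubules, had 7 ends 76 to 126 bases upstream in an intron of 715 bases and 5 ends 2964 to 3017 bases upstream in an intron of 4092 bases. TP53INP1 had 6 ends 67 to 75 bases upstream with 13 reads. TPM1, a tropomyosin gene, had 6 ends 7263 to 7279 bases upstream in an intron of 8506 bases with 7 reads, and TROAP had 5 ends 27 to 32 bases upstream with 14 reads. The ends of most of the 67 introns thus lay close together (49 within 20 bases), while others spread farther, as in CEMIP (7730 bases). How close ends would lie by chance was not worked out. In the named introns the ends did not always lie in the 20 to 29 base interval.

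The 1362 ciRNAs had 1046 host genes. A single ciRNA was listed for 867 hosts, 2 to 4 for 162 and at least 5 for 17. The hosts with the most ciRNAs were MACF1 with 13, COL1A2 with 11, and PDLIM7, CEMIP (a hyaluronan-degrading protein) and COL5A1 with 10 each. Collagen genes, which encode extracellular matrix proteins, numbered 9 among the hosts. They hosted 40 ciRNAs (2.94%) with 103 reads, and 120 (0.966%) of the exonic circRNAs. An exonic circRNA came from 621 (59.4%) of the ciRNA hosts as well, and 425 hosts gave none.

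Hosts were well expressed. Of 940 hosts with an mRNA entry, the 932 that passed the filter of a mean of 0.1 FPKM had a median level of 25.4 FPKM, against 17.5 for hosts of exonic circRNAs and 5.31 for all mRNAs. A mean of at least 10 FPKM was reached by 72.4% of ciRNA hosts, 62.5% of exonic circRNA hosts and 39.4% of all mRNAs. The 2 kinds of host overlap, and ciRNA hosts that gave no exonic circRNA had a median of 17.6 FPKM, with 62.0% at 10 FPKM or more, close to the hosts of exonic circRNAs. Exonic circRNA hosts that gave no ciRNA had a median of 15.0 FPKM, with 59.5% at 10 FPKM or more. Within single libraries, the hosts of the ciRNAs found there had a median of 20.5 to 37.7 FPKM, those of exonic circRNAs 20.6 to 27.0 FPKM and all mRNAs 4.55 to 5.49 FPKM. The ciRNA hosts lay above the exonic circRNA hosts in every library except 9 d replicate 2 (20.5 against 20.6 FPKM). More reads from an abundant host make a ciRNA easier to find, and this was not separated from other differences between hosts.

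Whether the ciRNA pool as a whole changed with differentiation was asked with 4 values per library. The ciRNA share of back-spliced reads was 5.52%, 4.74% and 4.17% at 0 d, 4.19%, 4.05% and 3.88% at 3 d, 4.10%, 4.59% and 5.58% at 6 d, with 4.32%, 4.23% and 3.18% at 9 d. The days overlapped, with means of 4.81% ± 0.679, 4.04% ± 0.154, 4.76% ± 0.754 and 3.91% ± 0.635 (SD, n = 3; exact permutation test over the 4 days, p = 0.232, adjusted p = 0.401). Summed SRPBM, the ciRNA reads scaled to the reads of the library, was 5407 ± 731, 4635 ± 347, 5408 ± 1464 and 6365 ± 1310 (SD, n = 3; exact permutation p = 0.301, adjusted p = 0.401). The share of ciRNAs among the circRNAs detected was 6.34% ± 0.441, 5.89% ± 0.603, 6.71% ± 0.975 and 5.88% ± 0.544 (SD, n = 3; exact permutation p = 0.405, adjusted p = 0.405). None of these 3 values passed the test.

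The share of ciRNA reads from circles closing 10 to 100 bases upstream was 25.4%, 24.8% and 28.7% at 0 d and 22.3%, 18.7% and 18.0% at 3 d. At 6 d it was 25.0%, 17.9% and 22.1%, and at 9 d 21.7%, 19.3% and 25.8%. The 3 libraries of 0 d lay above those of 3 d, but the test over the 4 days was not passed (means 26.3% ± 2.12, 19.7% ± 2.32, 21.7% ± 3.58 and 22.2% ± 3.31, SD, n = 3; exact permutation p = 0.137, adjusted p = 0.401). Without ciRNA132, the ciRNA with the most reads, the means were 28.2%, 20.6%, 24.7% and 23.9% (exact permutation p = 0.0131, adjusted p = 0.0522). With only ciRNAs found in at least 2 libraries the exact permutation p was 0.0659 (adjusted p = 0.264), and with a window of 1 to 200 bases 0.237 (adjusted p = 0.401). Without own-span ciRNAs, an alternative chosen after the data were seen, the means were 67.4%, 52.9%, 59.8% and 60.2% (exact permutation p = 0.0221, adjusted p = 0.0886). Without ciRNA75, also chosen after the data were seen, the share was 19.9%, 22% and 23.7% at 0 d against 21.8%, 18.2% and 17.3% at 3 d, so that these days overlapped (exact permutation p = 0.688, adjusted p = 0.688).

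Individual ciRNAs were compared between each day and 0 d with edgeR, fitted on all circRNAs with at least 5 reads over the 12 libraries. This filter kept 117 of the 1362 ciRNAs among 2828 circRNAs, of which 98 were own-span ciRNAs, and 21 of the 117 had reads on 1 day only. A ciRNA was called when its absolute log2 fold change was over 1 and its adjusted p under 0.05. At 3 d 2 of 117 ciRNAs were called, ciRNA75 and ciRNA123, where 0.813% of all circRNAs tested were called. At 6 d 1 ciRNA was called (0.530% of all circRNAs) and at 9 d 1 (0.566%), ciRNA123 on both days. Over the 4 days 2 passed (1.20% of all circRNAs), again ciRNA75 and ciRNA123, and no ciRNA was called higher than at 0 d. With edgeR 15, 9 and 14 of the 117 ciRNAs had an unadjusted p under 0.05 at 3, 6 and 9 d (12.8%, 7.69% and 12%, against 6.26%, 4.88% and 6.33% of all circRNAs tested). Calls numbered 0 in each comparison with DESeq2, which gave 2, 0 and 0 ciRNAs with an unadjusted p under 0.05 (1.71%, 0% and 0%, against 0.778%, 0.601% and 0.530%), and 0 with limma on SRPBM, which gave 15, 15 and 14 (12.8%, 12.8% and 12%, against 7.85%, 6.29% and 9.69%). Of all 2828 circRNAs limma called 6, 1 and 4, and 14 over the 4 days. DESeq2 called 0 of the 2828 circRNAs as well, so the ciRNA calls below rest on edgeR alone. A ciRNA that was not called may still have changed.

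The 3 libraries of a day lay wholly above or below those of 0 d in few ciRNAs. At 3 d 3 were higher and 5 lower (6.84% of 117, against 7.78% of all circRNAs tested). At 6 d the numbers were 5 and 4 (7.69% against 6.36%), and at 9 d 5 and 2 (5.98% against 8.98%). These shares were close to those of circRNAs in general. ciRNA100 was counted as higher at 6 d although 0 d replicate 1 and 6 d replicate 1 both held 2 reads of it.

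ciRNA75 had the most reads of the circles that closed 10 to 100 bases upstream, called lariat-type here. It lies in PDLIM7 on the minus strand (chr7:38990165-38990628, build ARS-UCD1.2), spans 464 bases of the 492-base intron and ends 28 bases before the intron's 3′ end. Its reads were 27, 11 and 22 at 0 d, 2, 2 and 3 at 3 d, 5, 3 and 9 at 6 d, with 13, 5 and 4 at 9 d. All 3 libraries of 3 d and all 3 of 6 d lay below those of 0 d, and 9 d overlapped 0 d. At 3 d it was 9.87-fold lower than at 0 d by summed reads (exact 95% counting interval 4.51 to 25.6), with an edgeR log2 fold change of −3.21 ± 0.79 (SE, adjusted p = 0.00769). At 6 and 9 d the log2 fold changes were −1.60 (adjusted p = 0.646) and −1.61 (adjusted p = 0.568) and were not called, and the test over the 4 days gave an adjusted p of 0.0305. The call at 3 d was lost with DESeq2 (adjusted p = 1), with limma (0.0843), without 0 d replicate 1 (0.0839) and without 3 d replicate 1 (0.0759), 2 (0.106) or 3 (0.0583), with log2 fold changes of −2.81 to −3.38 in these fits. Its adjusted p ranged from 0.000586 to 1 over 21 alternatives, of which 15 were under 0.05. Over the 4 days 9 of 20 alternatives stayed under 0.05. That call was lost with DESeq2 (adjusted p = 0.999), limma (0.261), library sizes taken from SRPBM (0.0541), the replicate block (0.0541), no filter (0.139) and a minimum of 20 reads (0.216), and without 0 d replicate 1 (0.373) or 3 (0.164) or 3 d replicate 1 (0.109), 2 (0.132) or 3 (0.0596).

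All 8 ends of the PDLIM7 intron together held 33, 16 and 26 reads at 0 d, 3, 3 and 6 at 3 d, 9, 3 and 12 at 6 d, with 22, 12 and 8 at 9 d. The sum at 3 d was 7.19-fold lower than at 0 d (exact 95% counting interval 3.89 to 14.5), 2.69-fold lower at 6 d (1.68 to 4.45) and 2.09-fold lower at 9 d (1.41 to 3.13). These intervals cover counting error only. The 7 ends other than ciRNA75 held 6, 5 and 4 reads at 0 d, 1, 1 and 3 at 3 d, 4, 0 and 3 at 6 d, with 9, 7 and 4 at 9 d, so that they were lower at 3 d and not at 9 d, and the fall of the sum at 9 d came from ciRNA75. PDLIM7 mRNA measured 12.7, 15.0 and 13.3 FPKM at 0 d against 8.69, 8.85 and 8.35 at 3 d. The libraries of 6 d had 11.0, 11.7 and 14.6 FPKM, and those of 9 d had 9.19, 7.61 and 7.30. The mRNA was thus lower in each library of 3 and 9 d than in those of 0 d, with limma log2 fold changes of −0.66 (adjusted p = 0.00117) at 3 d and −0.76 at 9 d that did not reach a call. The circle and its mRNA were not tested against each other. The summed skeletal muscle markers given above also had their lowest mean at 3 d (286 ± 15.3 FPKM, against 876 ± 57.9 at 0 d; SD, n = 3), and their part in the fall of ciRNA75 was not tested.

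**Figure D3:**
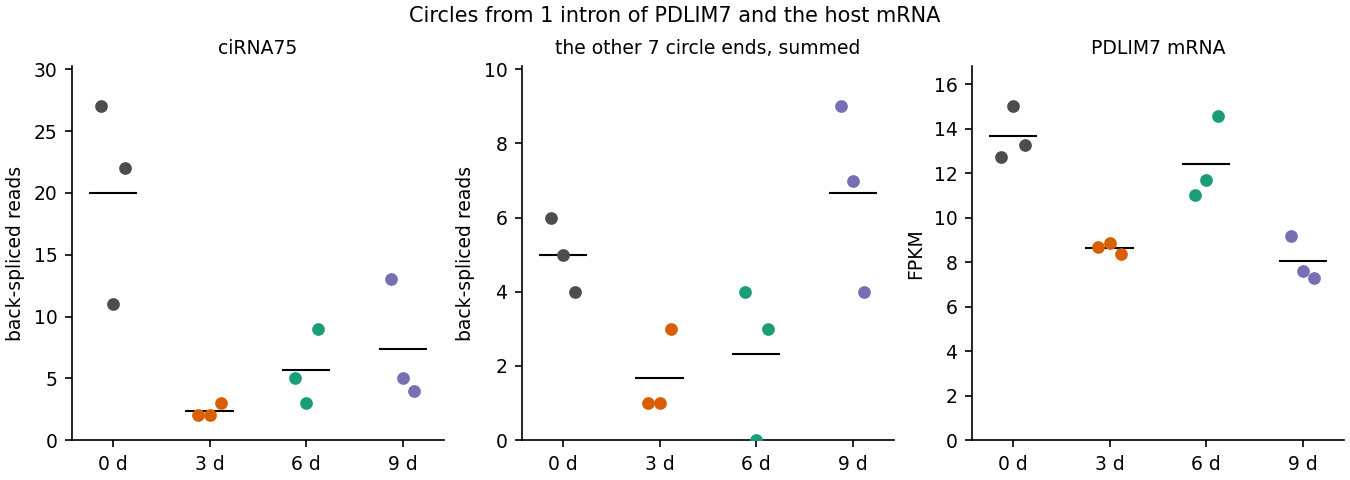
Back-spliced reads of ciRNA75 (left), summed reads of the other 7 circle ends of the same PDLIM7 intron (middle) and PDLIM7 mRNA in FPKM (right). Each point is a library, lines are the means of the 3 libraries of a day, and ciRNA75 stands at 2 to 3 reads in the 3 libraries of 3 d.

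ciRNA123 was a circle of another kind. It covers 53.1 kb of LOC784541 on an unplaced scaffold (positions 43596 to 96694, plus strand), with its own span as the listed intron. It had 22, 0 and 19 reads at 0 d and was listed at 0 in all 9 later libraries. Because 0 d replicate 2 had no read, the days overlapped. Against a floor of 3 reads over the 3 libraries of a day, its level on days 3, 6 and 9 was lower by at least 15.7-fold, 11.8-fold and 16.0-fold (adjusted p = 0.00173, 0.00740 and 0.00231 in edgeR, and 1.78e-07 over the 4 days). These folds take its 0 d reads as exact. The calls at 3, 6 and 9 d were lost with DESeq2, with limma, with a minimum of 20 reads, and without 0 d replicate 1 (adjusted p = 0.178, 0.363 and 0.231 at 3, 6 and 9 d) or 0 d replicate 3 (0.0819, 0.195 and 0.103), and at 6 d also without 6 d replicate 3 (0.101) and with the replicate block (0.0901). The log2 fold changes of these fits were −5.86 to −6.79, and −3.31 in limma, against −6.80 in the main fit. The call over the 4 days was lost with DESeq2 (0.999), limma (0.223) and a minimum of 20 reads (0.282). Over the alternatives the adjusted p ran from 8.36e-06 to 1 at 3 d, from 0.000713 to 1 at 6 d and from 0.000230 to 1 at 9 d. A second circle of the same locus and strand, ciRNA122 (54.5 kb), had 2, 2 and 0 reads at 0 d, 0 in the 3 libraries of 3 d, 0, 7 and 3 at 6 d, with 6, 2 and 9 at 9 d, so that the circles of this locus did not follow the same course.

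ciRNA132 had the most reads of all ciRNAs, 325 (7.86% of ciRNA reads), and is placed in BoLA, a gene of the bovine major histocompatibility complex (chr23:27833421-27873289, plus strand, own span). Its reads were 73, 0 and 0 at 0 d, 6, 18 and 23 at 3 d, 0, 57 and 63 at 6 d, with 0, 85 and 0 at 9 d. Libraries of the same day thus ranged from 0 to at least 63 reads at 0, 6 and 9 d. It was not called in any comparison with all libraries, and leaving out any of 3 libraries changed this. Without 0 d replicate 1 it was called higher on each later day (adjusted p = 1.06e-05, 5.55e-10 and 9.86e-08) and over the 4 days (2.26e-09). Without 9 d replicate 2 it was called lower at 9 d (adjusted p = 4.17e-08) and over the 4 days (1.26e-09), and without 6 d replicate 1 it was called over the 4 days alone (0.0286). Another 14 ciRNAs or intergenic circRNAs with at least 10 reads lay within 1 Mb of it.

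GLIS3 encodes a zinc finger transcription factor and hosted ciRNA489 (chr8:40209242-40284931, plus strand, 75.7 kb, own span). ciRNA489 had 6, 3 and 4 reads at 3 d and was listed at 0 in the 9 libraries of the other days. It was at least 3.76-fold higher at 3 d than at 0 d against the floor of 3 reads, with its 3 d reads taken as exact. It was not called here (edgeR adjusted p = 0.585, and 0.0944 to 1 over its alternatives). The paper reports ciRNA489 as differentially expressed. It also measured this circle by qRT-PCR and describes the trend as matching its RNA-seq. GLIS3 mRNA measured 29.1, 31.7 and 24.4 FPKM at 0 d against 206, 188 and 239 FPKM at 3 d, and had means of 33.7 and 31.8 FPKM at 6 and 9 d. The mRNA rose at 3 d in limma (log2 fold change 2.89, adjusted p = 1.99e-08), so that circle and mRNA stood highest on the same day.

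FAM110B hosted ciRNA105 (chr14:24307557-24324216, plus strand, 16.7 kb, own span), which had 4, 5 and 3 reads at 0 d and was listed at 0 in the 9 later libraries. Against the same floor, with its 0 d reads taken as exact, its level on days 3, 6 and 9 was lower by at least 4.60-fold, 3.44-fold and 4.68-fold, without a call (adjusted p = 0.583, 0.646 and 0.568). FAM110B mRNA averaged 17.8 FPKM at 0 d and 10.9, 10.8 and 9.56 FPKM at 3, 6 and 9 d and was not called either. ciRNA823 of AVEN, an apoptosis regulator gene (chr10:28546325-28575606, plus strand, 29.3 kb, own span), had 2, 3 and 2 reads at 6 d, 2, 0 and 0 at 9 d and 0 in the 6 libraries of 0 and 3 d. AVEN mRNA was called lower at 3 d (log2 fold change −1.19).

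HIF1A, the oxygen-regulated transcription factor, hosted ciRNA119 (chr10:73854744-73858266, plus strand, 3523 bases, own span). The reads of ciRNA119 were 2, 0 and 5 at 0 d, 8, 5 and 9 at 3 d, 7, 10 and 5 at 6 d, with 12, 11 and 0 at 9 d. By summed reads the ratio to 0 d was 2.73 (exact 95% counting interval 1.13 to 7.57) at 3 d, 3.65 (1.51 to 10.1) on day 6 and 2.81 (1.17 to 7.74) on day 9, and none was called by edgeR (adjusted p = 0.585, 0.646 and 0.568). ciRNA119 never had a value of 1, so its values of 0 at 0 d and 9 d may each stand for 1 read. That would lower the ratios, and the intervals do not cover it. HIF1A mRNA averaged 77.4 FPKM at 0 d and 412, 237 and 186 FPKM at 3, 6 and 9 d, and was called higher on each day (limma log2 fold changes 2.41, 1.61 and 1.27). The counting intervals were too wide to tell whether the circle and its mRNA differed in size of change.

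**Figure D4:**
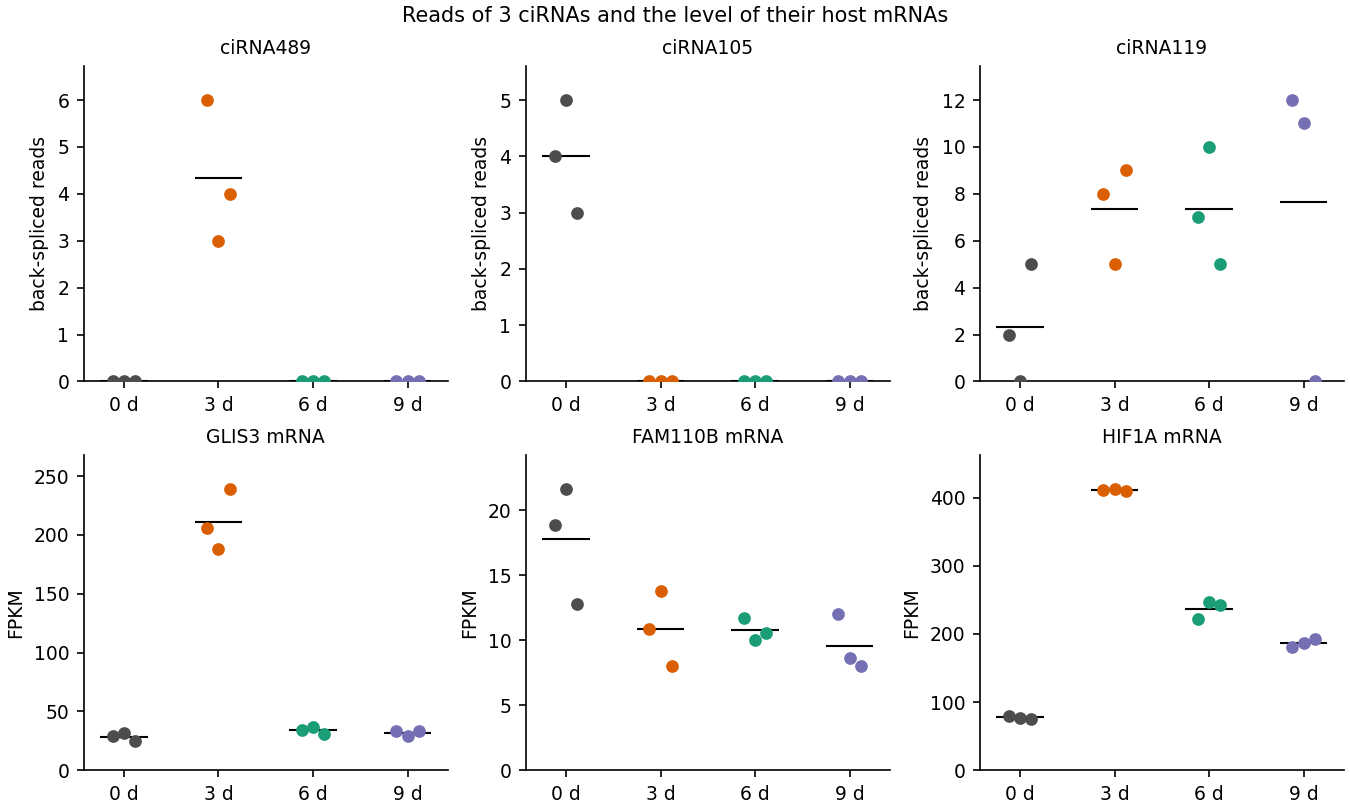
Back-spliced reads of ciRNA489, ciRNA105 and ciRNA119 (upper panels) and FPKM of their host mRNAs GLIS3, FAM110B and HIF1A (lower panels). Each point is a library and lines are the means of 3 libraries, with ciRNA489 above 0 reads at 3 d alone and ciRNA105 at 0 d alone.

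Other abundant ciRNAs showed no call. ciRNA101 of PEX11G, a peroxisome protein gene, had 135 reads in 10 libraries, and PEX11G mRNA was called higher at 3 d (log2 fold change 1.08). ciRNA110 of SEMA3F, a secreted guidance factor gene, had 113 reads in 11. ciRNA110 had 9, 13 and 14 reads at 0 d and 9, 4 and 5 at 3 d, while SEMA3F mRNA was called lower at 3 d (log2 fold change −2.12). CUL1, a ubiquitin ligase scaffold gene, hosted ciRNA113 with 67 reads and ciRNA365 with 40, whose ends differ by 4 bases. ciRNA365 had 0, 0 and 3 reads at 0 d and 12, 5 and 5 at 9 d, which is 6.26-fold higher by summed reads (exact 95% counting interval 1.88 to 32.7) and was not called (edgeR adjusted p = 0.568). This own-span circle never had a value of 1, so its values of 0 at 0 d may each stand for 1 read. That would lower the ratio, and the interval does not cover it. The log2 fold change of ciRNA365, 2.58, ran from 1.96 without 9 d replicate 1 to 5.72 without 0 d replicate 3. The 2 circles together held 3, 9 and 12 reads at 0 d and 17, 15 and 15 at 9 d, a ratio of 1.67 (exact 95% counting interval 1.00 to 2.86). ciRNA141 of FAM193B had 2, 4 and 6 reads at 0 d, was listed at 0 in the 3 libraries of 3 d, and had 5, 3 and 3 reads at 6 d and 9, 10 and 5 at 9 d. At 3 d its level was lower by at least 4.60-fold against the floor, with its 0 d reads taken as exact, and without a call (edgeR adjusted p = 0.0969, and 0.0887 over the 4 days). With circRNAs within 5 bases summed it was called over the 4 days (adjusted p = 0.0395). The less abundant ciRNA100 of ADGRA2, with 12 reads, had 2, 0 and 0 at 0 d and 2, 3 and 5 at 6 d. It was listed at 0 in all libraries of 3 d and 9 d. ADGRA2 mRNA was called lower at 3 d (log2 fold change −1.92) and was not called at 6 d (−0.22). ciRNA162 of HCFC1R1 was the other lariat-type circle among the 15 with the most reads, with an end 28 bases upstream of its intron's 3′ end and 31 reads in 11 libraries. The remaining circles of these 15, ciRNA128 of TEX14, ciRNA120 of NDUFAF5, ciRNA246 of LOC100337244 and ciRNA233 of MFSD14B, had 29 to 60 reads.

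**Figure D5:**
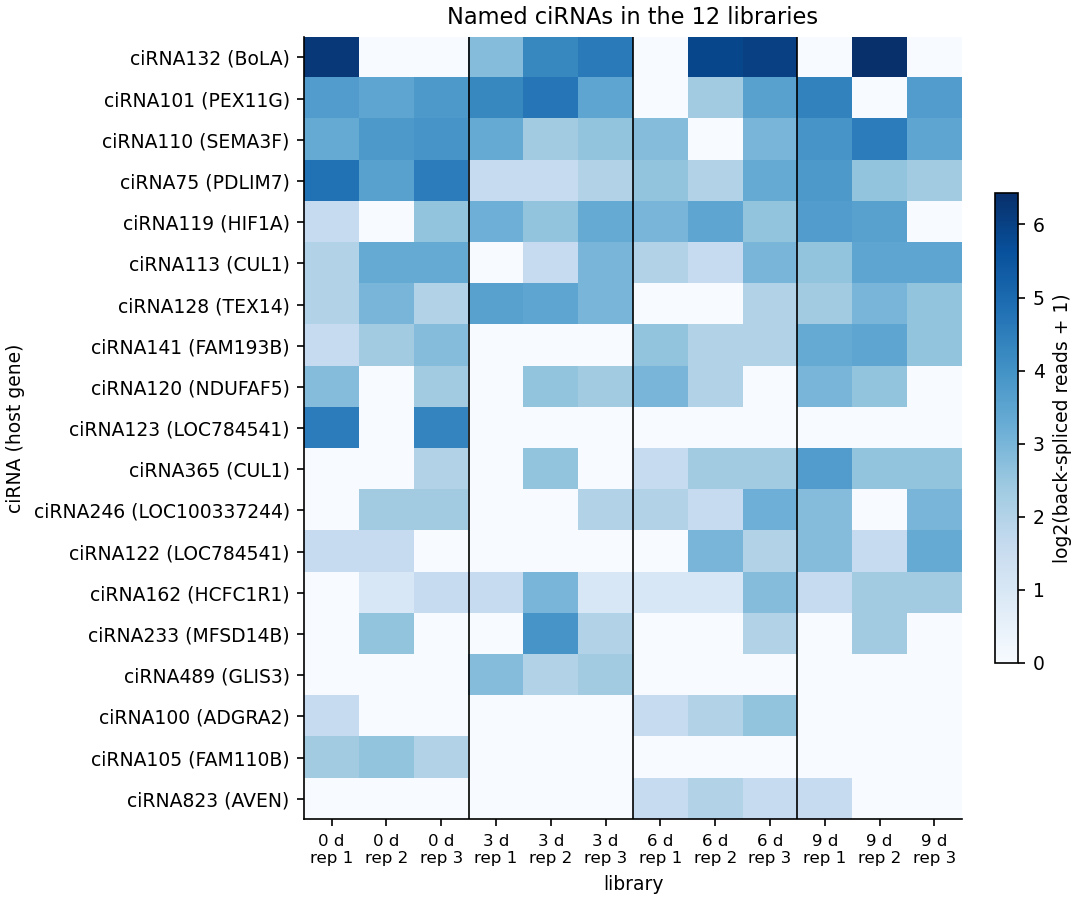
Reads of the named ciRNAs, with host genes, in the 12 libraries as log2(back-spliced reads + 1), ordered by total reads and with lines between the days. ciRNA75 has reads in all 12 libraries, whereas ciRNA132 and ciRNA123 have 0 reads in some libraries of a day and over 10 in others.

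The mRNAs of ciRNA hosts were compared between days in limma. At 3 d 200 of 932 hosts were called (21.5%, 68 higher and 132 lower), where 23.3% of all mRNAs were called. At 6 d 74 were called (7.94%, 37 higher and 37 lower, against 11.4% of all mRNAs), and at 9 d 63 (6.76%, 25 higher and 38 lower, against 10.9%). Over all mRNAs tested, 1241 were called higher and 2344 lower at 3 d. The counts were 522 higher and 1227 lower at 6 d, and 525 higher and 1150 lower at 9 d. Whether hosts differed from all mRNAs in this split was not tested. The median host log2 fold change was −0.08, −0.11 and −0.18 at 3, 6 and 9 d, beside −0.06, −0.15 and −0.19 for all mRNAs tested, so that the medians of hosts and of all mRNAs lay within 0.05 of each other. Among the hosts with the most ciRNAs, CEMIP was called lower at 3 d (log2 fold change −2.85), as was COL1A2 (−1.18), and COL5A1 was called higher at 6 d (1.21). THBS1, a matrix glycoprotein gene with 9 ciRNAs, was called lower at 3 d (−1.87) and higher at 6 d (1.89) and 9 d (1.74). MACF1, with the most ciRNAs, had no mRNA entry.

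Genes that form, release or degrade lariats, or that act on circRNA levels, were read from the same limma fit. Of 34 listed genes 31 had an mRNA entry and 30 were tested. At 3 d 2 of the 30 were called, both lower, where 23.3% of all mRNAs were called. One of them, QKI, an RNA-binding protein that promotes back-splicing of exons, measured 347, 338 and 290 FPKM at 0 d against 59.3, 81.9 and 144 FPKM at 3 d (log2 fold change −1.87 ± 0.47 SE, adjusted p = 0.00688). Called in limma were 0 of the 20 tested genes of branch point and lariat formation, of lariat release and debranching and of intron RNA decay at 3, 6 and 9 d, while 10, 5 and 7 of them had an unadjusted p under 0.05, as did 57.3%, 43.1% and 45.3% of all mRNAs. No other tool was run on mRNAs. At 6 and 9 d 0 of all 30 were called in limma (11.4% and 10.9% of all mRNAs), with 7 and 13 at an unadjusted p under 0.05. DBR1 averaged 4.85, 4.76, 6.39 and 6.49 FPKM at 0, 3, 6 and 9 d. Its log2 fold changes of −0.02, 0.39 (adjusted p = 0.00333) and 0.41 (adjusted p = 0.00239) stayed under the threshold for a call.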

How the data were processed

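The back-spliced read count of each circRNA and library, and SRPBM, a signal equal to the count times 1 factor per library, were used as the authors deposited them. mRNA levels are the FPKM the authors deposited, and miRNA levels are the normalized signal the authors deposited. The authors mapped reads to ARS-UCD1.2 and called circRNAs with CIRCExplorer2 and CIRI, and the submitters' notes list HISAT2 2.0, StringTie 1.3.0 and Bowtie 0.12.2. Reads were not mapped again. Another 24 per-sample value columns were not used.

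Each of the 12 libraries was grouped by the day in its label, and same-numbered replicates of different days were treated as unpaired. Counts of circRNAs with at least 5 reads were fitted with edgeR 4.0.16 (TMM, quasi-likelihood, 1 mean per day), and log2(FPKM + 0.1) of mRNAs with a mean of at least 0.1 with limma 3.58.1 (trend). A call required an adjusted p (Benjamini-Hochberg, over all features of the table tested) under 0.05 and a log2 fold change beyond 1 in size, or the adjusted p alone over the 4 days. Values per library were tested by two-sided exact permutation over 15400 partitions (smallest p 6.5e-05), adjusted over 4 values. Ratios of summed reads use TMM library sizes, and a day at 0 is set to a floor of 3 reads over its 3 libraries. Intervals cover counting error only. A fold against a floor takes the reads of the other day as exact, so it is not a confidence limit. Alternatives used DESeq2 1.42.0, limma on log2(SRPBM + 10), other filters, library sizes and pseudocounts, and each library left out. R 4.3.3, Python 3.11.15, pandas 2.3.3, SciPy 1.17.1 and Matplotlib 3.10.9 were used, and both the geometry and the fits were tested on simulated data. There the edgeR fit found most of the larger changes and missed most of the smaller ones. Its criterion was moved to the larger changes after an earlier run on smaller changes alone had not met it. The check of the edgeR fit is therefore no independent support for that fit.

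The members and lists were chosen with earlier results of these data known. A ciRNA was named if it was called, was among the 15 with the most reads, was found in all 12 libraries, was in the study's networks, or had the largest rise or fall among tested ciRNAs whose days do not overlap and that have at least 10 reads on 1 of the days. Hosts were named with their ciRNAs or for 1 of the 5 largest numbers of ciRNAs, and processing genes if called, with DBR1. The other processing gene called at 3 d is not reported here. Other names were added after their values were seen.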

Additional observations from a re-analysis of the deposited data

How the results depend on the processing

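The count of called ciRNAs (2 at 3 d, 1 at 6 d, 1 at 9 d and 2 over the 4 days) was 0 in all 4 tests with DESeq2 and 0 in all 4 with limma on SRPBM. The cause was not tested. With at least 20 reads it was, in the same order, 1, 0, 0 and 0, with 26 ciRNAs left. Without own-span ciRNAs (chosen after seeing the data) it was 1, 0, 0 and 1, with 19 left. A block for the replicate number gave 0 at 6 d and 1 over the 4 days, and over the 4 days no filter gave 1, as did library sizes taken from SRPBM, while summing circRNAs within 5 bases gave 3. Leaving out 1 library gave, in the same order, 1 to 2, 0 to 1, 0 to 2 and 1 to 3. Counts of called host mRNAs stayed within 1.5 times under every alternative run. Called processing genes at 3 d (2) fell to 1 with a pseudocount of 1 and with a mean FPKM of at least 1, and were 1 to 2 with 1 library left out (1 without 0 d replicate 3); at 9 d they were 0 to 1 (SF1, without 9 d replicate 3). None of the 4 library-level values passed the adjusted test under any alternative. Without the read filter edgeR called 0 of the 1245 ciRNAs under 5 reads, and 0 had an unadjusted p under 0.05. DESeq2 and limma were not run without the filter. A lack of calls there does not show a lack of change.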
